A study of Mus musculus with 2 samples.

Results

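The genes described here are those of the bone morphogenetic protein (BMP) and transforming growth factor beta (TGF-beta) pathway: ligands, latent binding proteins, antagonists, receptors, Smads, brakes on Smad signalling and target genes. They were chosen by name, as every probe set annotated to 1 gene symbol on a list of 49. The list found 47 genes with 83 probe sets, out of 12393 genes with 20380 probe sets. Smurf1 and Smurf2, ubiquitin ligases that act on Smads and receptors, had no probe set of their own and are not analysed here. A probe set is a group of short oligonucleotides read as 1 intensity for a transcript, and a gene with several was represented by the one with the highest mean intensity.

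The data were total RNA profiles of murine bone on 2 arrays. The labels describe an allograft sample and an autograft sample, each from a c57Bl/6 femur, without the age of the animals, the time after grafting, the donor strain or the number of animals behind a sample. No further genotype or treatment is named for either group. With 1 array per group there is no replicate check and no p-value can be given for a difference between the grafts; 2 arrays bound the precision of every value.

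BMPs and TGF-betas are secreted dimers that bind pairs of type I and type II receptor kinases. BMP receptors phosphorylate Smad1 and Smad5, TGF-beta and activin receptors phosphorylate Smad2 and Smad3, and both sets of Smads enter the nucleus with Smad4. TGF-beta is stored in bone matrix as a latent complex and is released during resorption, BMPs drive cartilage and bone formation, and the pathway induces its own inhibitors, among them Smad6, Smad7 and Bambi.

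An intensity of 175.2, the median of all non-control values on both arrays, served as the floor: lower values were set to it before log2 was taken. Each ratio is log2 of the allograft minus log2 of the autograft intensity, so that a positive value is higher in the allograft, and a ratio with 1 array below the floor is a bound. Of the 47 genes, 32 passed the floor on both arrays, 1 (Id4) passed it in the allograft only and 3 (Bmp6, Acvr2b and Tgfbr3) in the autograft only, while 11 lay under it on both. None of the 36 genes above the floor was at least 2-fold higher and none at least 2-fold lower in the allograft, against 0.868% and 0.753% of all 7833 genes above the floor (1.62% in either direction). At 1.5-fold, Ltbp2 was higher and Bambi and Smad6 were lower (6.56% of all genes were lower), together 8.33% of the members against 10.6% of all genes in either direction. Of the 36 genes 14 had a ratio above 0 (40.4% of all genes did), 21 below 0 (58.3%, against 59.5% of all genes) and Smad1 exactly 0. Their median was -0.05, beside -0.08 over all genes, and 0.02 with the trend of the ratio with intensity removed.

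**Figure D1:**
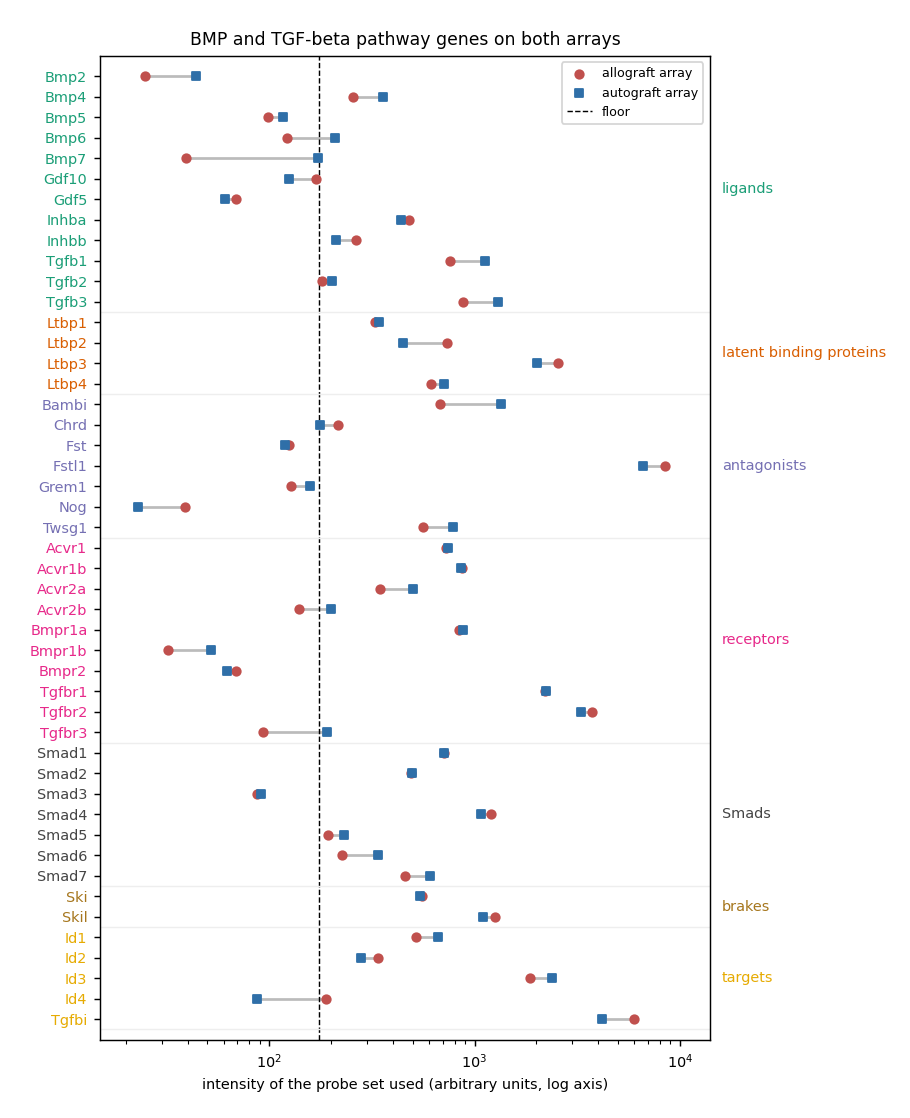
Intensity of the probe set used for each of the 47 genes (log axis, arbitrary units) on the allograft array (circles) and the autograft array (squares), grouped by role, with the floor of 175.2 as a dashed line. The symbols of most genes lie close together, and the widest gap to the right of the floor is that of Bambi, at 680.1 against 1347.

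Several facts of the arrays stand beside the values that follow. The osteoblast markers were present, 6 of 6 with a probe set being above the floor on both arrays, and no marker used here was listed at 0. Blood and muscle markers summed to more in the allograft sample, at 18747 against 9266 for 7 erythroid genes, 46476 against 35157 for 9 neutrophil genes and 51381 against 38000.0 for 9 skeletal muscle genes. Fibroblast and periosteal markers, 6 genes, summed to 30207 against 21805. Chondrocyte markers (11 genes, Col9a2 and Sox9 below the floor on both arrays) summed to 21149 against 26175. Of the 9 with a ratio 8 were below 0 and 1 above, with a median of -0.65. Endothelial markers (7 genes, Tie1 below the floor) summed to 2580 against 3102. The 6 osteoblast genes summed to 22039 against 19378, with 3 ratios above 0 and 3 below and a median of -0.27. Among them Col1a1 alone read 4994 against 771. For 5 osteoclast genes the sums were 14865 against 11307 (2 with a ratio above 0 and 2 below, among them Ocstamp at -1.46, with a median of -0.32). Sums were 11163 against 9004 for 5 platelet and 19949 against 13791 for 3 adipocyte genes. The intensity ratio of the 3' to the 5' beta-actin control was higher for the allograft (1.77) than for the autograft (1.19). That of the Gapdh control was also higher for the allograft (0.194 against 0.0349), but both values were far below 1. The 3' Gapdh probe set read 1577 against 233 and the 5' one 8122 against 6671, so this control is not read here as a measure of RNA quality. The part of cell content or RNA quality in any ratio below was not tested, and in bulk RNA fewer cells of a type and less RNA per cell cannot be told apart.

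Upstream sequences of 4 genes from the RefSeq promoter table (GRCm38.p6) are shown as examples from either side of 0, chosen after their ratios were seen. Id3 and Smad6, BMP target and feedback genes, had ratios below 0. Tgfbi, a TGF-beta-induced gene, and Ltbp2, of the family named latent TGF-beta binding proteins, had ratios above 0. Each sequence is the 250 bases before the annotated start, 5′ to 3′ on the strand of the gene. The places are chr4:136143572-136143821 on the plus strand for Id3, chr9:64022060-64022309 on the minus strand for Smad6, chr13:56609336-56609585 on the plus strand for Tgfbi and chr12:84876492-84876741 on the minus strand for Ltbp2. Capitals mark CAGAC or its reverse complement GTCTG, the core of a Smad-binding element, and GGCGCC, a GC-rich Smad motif that is its own reverse complement. Neither motif contains the other.
Id3: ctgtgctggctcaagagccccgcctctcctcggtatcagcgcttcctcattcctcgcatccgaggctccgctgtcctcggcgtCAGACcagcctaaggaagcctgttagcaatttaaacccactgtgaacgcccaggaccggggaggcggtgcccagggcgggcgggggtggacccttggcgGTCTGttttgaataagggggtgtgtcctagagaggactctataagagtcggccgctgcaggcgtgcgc
Smad6: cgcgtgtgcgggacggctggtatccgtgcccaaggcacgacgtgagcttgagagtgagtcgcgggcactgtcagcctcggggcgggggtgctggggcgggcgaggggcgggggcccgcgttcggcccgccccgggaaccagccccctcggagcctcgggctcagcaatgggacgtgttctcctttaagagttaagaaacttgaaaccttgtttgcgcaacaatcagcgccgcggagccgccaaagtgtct
Tgfbi: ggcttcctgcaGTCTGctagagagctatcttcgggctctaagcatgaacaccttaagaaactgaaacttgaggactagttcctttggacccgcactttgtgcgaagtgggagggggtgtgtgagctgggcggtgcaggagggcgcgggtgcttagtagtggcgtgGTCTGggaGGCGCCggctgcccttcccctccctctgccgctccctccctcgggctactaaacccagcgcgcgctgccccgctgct
Ltbp2: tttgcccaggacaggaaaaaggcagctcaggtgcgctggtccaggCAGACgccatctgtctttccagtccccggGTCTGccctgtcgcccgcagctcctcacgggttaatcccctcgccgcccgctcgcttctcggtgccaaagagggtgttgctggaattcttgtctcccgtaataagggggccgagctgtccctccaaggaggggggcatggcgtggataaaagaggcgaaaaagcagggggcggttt

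The window of Id3 held CAGAC on either strand 2 times, beginning 167 and 68 bases before the start, and that of Ltbp2 also 2 times, 205 and 176 bases before it. Tgfbi had 2 such matches, 239 and 85 bases before the start, and GGCGCC 77 bases before it. In the Smad6 window the search found neither set of letters. Of all 32851 windows of this length 42.2% held CAGAC or GTCTG and 9.59% held GGCGCC. The table held 44 windows for 36 of the 49 listed genes, and among them the shares were 47.7% and 29.5%. A gene with several windows counts more than once in these shares. GGCGCC consists of G and C alone, and the GC content of the member windows was not compared with that of all windows. Whether the difference in its share is a trait of the pathway was not tested. A match describes letters and is not a measured binding site, and a window without one says nothing about the factor.

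All 3 TGF-beta isoforms read lower in the allograft sample. Tgfb1, the TGF-beta isoform stored in bone matrix, had an intensity of 758.5 in the allograft and 1123 in the autograft sample, a log2 ratio of -0.57. Tgfb3, a related isoform, read 882 against 1306, also -0.57. The autograft value was 1.48-fold the allograft value for both genes. Of all genes above the floor, 7.28% had a ratio as low as that of Tgfb1. Tgfb2 lay just above the floor on both arrays, at 181 against 201.5 (-0.15), and its other 2 probe sets were below it.

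Among the BMPs, Bmp4, which induces cartilage and bone, read 256 in the allograft and 357 in the autograft sample (-0.48). Bmp6, an inducer of bone formation and of hepcidin, was above the floor in the autograft alone, at 122 against 209.6, so its ratio of -0.26 is a bound and the autograft level was at least 1.20-fold the allograft level. Bmp2, Bmp5, Bmp7, Gdf5 and Gdf10 were below the floor on both arrays and have no ratio. The probe set used for Bmp7 came closest, with 39.1 in the allograft and 173.6 in the autograft sample. The other probe sets of Bmp7 showed no such gap, at 33 against 34.5 and 2.5 against 2.6. The activin subunits went the other way: Inhba, the beta A subunit, read 479 against 440.3 (0.12) and Inhbb, the beta B subunit, 265 against 213 (0.32), while the second probe set of Inhbb was below the floor. Of the 12 ligands 7 were above the floor, 2 with a ratio above 0 and 5 below, and their median was -0.26. That median is the bound of Bmp6.

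**Figure D2:**
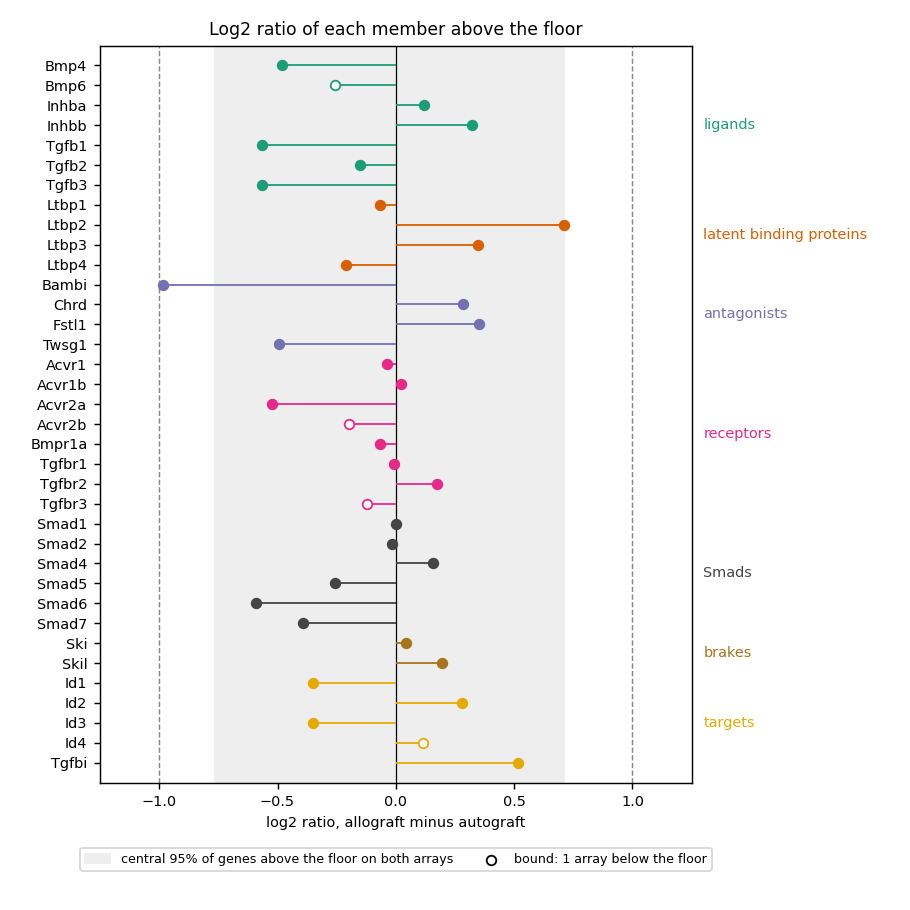
Log2 ratio (allograft minus autograft) of the 36 members that passed the floor on either array, coloured by role; open symbols are bounds, the grey band holds the central 95% of ratios over genes that passed it on both arrays (-0.76 to 0.71), and dashed lines mark 2-fold. No symbol reaches a 2-fold line, and Bambi at -0.99 lies outside the band while Ltbp2 at 0.71 lies on its edge.

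Latent TGF-beta binding proteins hold TGF-beta, or in the case of Ltbp2 microfibril proteins, in the matrix. Ltbp2 had the highest ratio of all members, reading 735 in the allograft and 448.5 in the autograft sample (0.71, or 1.64-fold), and 97.6% of all genes above the floor had a ratio at or below it. Ltbp3, which is needed for normal bone turnover, read 2561 against 2011 (0.35) by the probe set used and 1103 against 1156 (-0.07) by its other one, so its direction depended on the probe set. Ltbp1 read 328 against 343 (-0.07) and Ltbp4 615 against 712 (-0.21). The median of the 4 genes was 0.14, and it was -0.07 with the dimmest probe sets. With those not marked as shared between transcripts it was also -0.07, over 3 genes, since Ltbp4 had no such probe set.

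Bambi, a decoy receptor without a kinase that is itself induced by BMP and TGF-beta, had the lowest ratio of the members. Its single probe set read 680.1 in the allograft and 1347 in the autograft sample, a ratio of -0.99, or 1.98-fold lower. Only 0.804% of all genes above the floor had a ratio as low. Twsg1, twisted gastrulation, which binds BMPs together with chordin, read 559.5 against 788.5 (-0.49), and its next probe set read 108 against 220.1, a bound of -0.33. Its last 2 probe sets were below the floor.

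The other extracellular antagonists above the floor had ratios above 0. Chrd, chordin, lay near the floor, at 215 in the allograft and 177 in the autograft sample (0.28). Fstl1, a follistatin-like glycoprotein of mesenchymal cells, was read by a pair of probe sets that were alike, at 8494 against 6654 (0.35) and 6043 against 4781 (0.34). Genes of such intensity tended to positive ratios on these arrays: the brightest of 20 intensity bins had a median of 0.27, and with this trend removed Fstl1 stood at 0.07. Nog, noggin, Grem1, gremlin, and Fst, follistatin, were below the floor on both arrays, at no more than 158.6. Over the 4 antagonists with a ratio the median was -0.11, with 2 on either side of 0. It was 0.04 with the mean over probe sets. With the dimmest probe sets Twsg1 fell below the floor, and the median of the 3 genes left was 0.28.

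**Figure D3:**
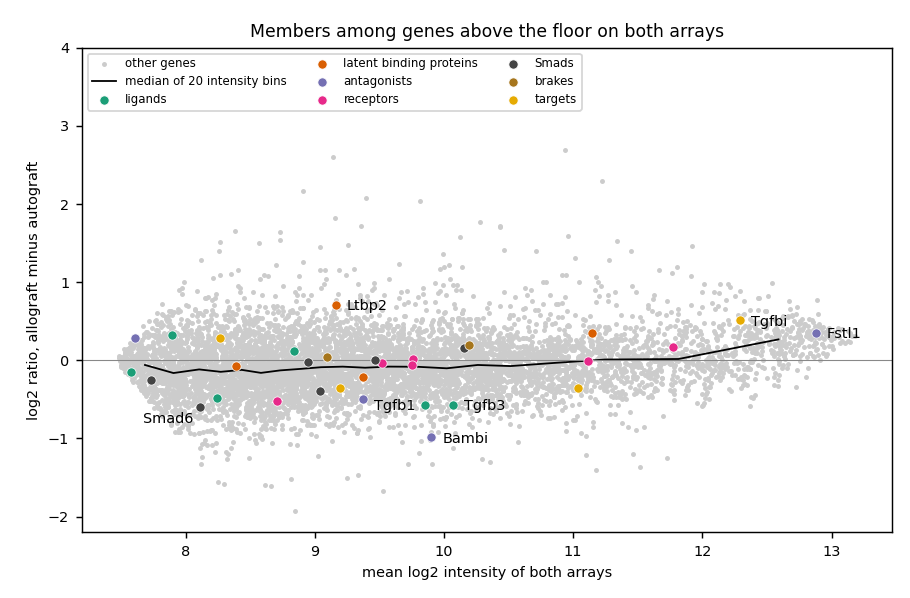
Log2 ratio (allograft minus autograft) against mean log2 intensity for the 7101 genes that passed the floor on both arrays (grey), with the 32 members among them coloured by role and the median of 20 intensity bins as a black line. The line lies near -0.1 at most intensities and reaches 0.27 at the bright end, where Tgfbi and Fstl1 lie, and Bambi is the lowest member.

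No receptor above the floor on both arrays was more than 1.44-fold apart. Tgfbr1, the type I TGF-beta receptor, read 2213 in the allograft and 2222 in the autograft sample (-0.01), and Tgfbr2, its type II partner, 3720.2 against 3295 (0.18). The BMP type I receptors Bmpr1a (842 against 881, -0.06) and Acvr1 (725 against 745, -0.04) and the activin type I receptor Acvr1b (872 against 859.8, 0.02) were within 1.05-fold of equal. A second probe set of Acvr1 gave a bound of -0.45 (150.5 against 239), and those of Bmpr1a above the floor gave -0.19 and 0.01.

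The type II activin receptor Acvr2a, which also binds BMPs, had the lowest ratio of the receptors, at 348 against 500.1 (-0.52, or 1.44-fold). Its paralogue Acvr2b was above the floor in the autograft sample alone, at 139.5 against 201 (a bound of -0.20), as was the co-receptor Tgfbr3, betaglycan, at 92.8 against 190.4 (a bound of -0.12). Bmpr1b and Bmpr2 were below the floor on both arrays, at 32.1 against 51.9 and 68.6 against 62.4. Of the 10 receptors 8 had a ratio, 2 above 0 and 6 below, with a median of -0.05 (0.01 after scaling to the 75th percentile).

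The ratios of the signal-transducing Smads lay between -0.26 and 0.16. Smad1, of the BMP branch, had the same intensity on both arrays, 708.1, and Smad2, of the TGF-beta branch, read 492 against 497 (-0.02). Smad5, the other BMP Smad on the list, read 194 against 232 (-0.26), near the floor. Smad4, the shared partner, gave ratios of 0.16 (1203 against 1078) and 0.11 (1152 against 1070.3) by its brighter probe sets and -0.70 (180.4 against 293) by its dimmest. Smad3 was below the floor, at 87.1 against 91.2.

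**Figure D4:**
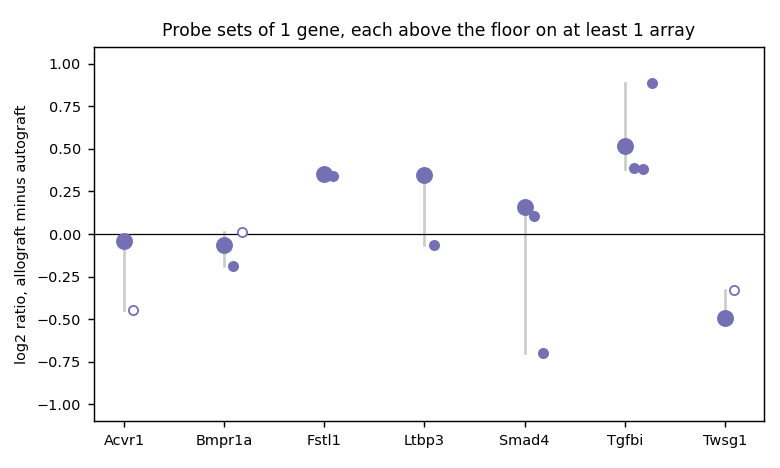
Log2 ratio (allograft minus autograft) of every probe set above the floor on at least 1 array, for the 7 members with more than 1 such probe set; the large symbol is the one used for the gene and open symbols are bounds. All probe sets lie on 1 side of 0 for Acvr1, Fstl1, Tgfbi and Twsg1 and on both sides for Bmpr1a, Ltbp3 and Smad4.

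Both inhibitory Smads, which the pathway induces and which block its receptors, read lower in the allograft sample. Smad6, the inhibitor of the BMP branch, read 226 against 340.5 (-0.59, or 1.51-fold), and Smad7, the inhibitor of both branches, 460.2 against 605 (-0.39). Over the 6 Smads with a ratio the median was -0.14. Among the brakes in the nucleus, Ski read 556 against 539.5 (0.04) and Skil, which TGF-beta induces, 1255 against 1096 (0.20).

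Id genes, the direct BMP targets that block basic helix-loop-helix factors, were split. Id1 read 519 in the allograft and 662.5 in the autograft sample (-0.35), and Id3 1865 against 2376 (-0.35). Id2 lay at 339 against 279 (0.28), with its other 2 probe sets below the floor. Id4 passed the floor only in the allograft, at 189.7 against 87.4, which gives a bound of at least 1.08-fold higher. The other 2 probe sets of Id4 were below the floor on both arrays, at 128.1 against 123.2 and 62.6 against 79.9.

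Tgfbi, a secreted adhesion protein named for its induction by TGF-beta, was higher in the allograft sample by all 4 of its probe sets. They read 6002 against 4200.5 (0.51), 5185 against 3957 (0.39), 3328 against 2549.7 (0.38) and 2576 against 1393 (0.89). Tgfbi lies at the bright end of the array, where ratios tend upward, and stood at 0.33 with the intensity trend removed. Its ratio was opposite in sign to those of Tgfb1 and Tgfb3. Fibroblast markers summed to more in the allograft sample, as given above, and macrophage markers (7 genes, Marco below the floor) summed to 19212 against 17418, although 3 of the 6 with a ratio were below 0 and their median was -0.15; the part of either list in the Tgfbi ratio was not tested. The median of the 5 target genes was 0.11, which is the bound of Id4. The sign of the median turned with the floor at the upper quartile of intensity (-0.24) and with the dimmest probe sets (-0.35). In both of these settings Id2 and Id4 fell below the floor and 3 genes remained.

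The probe sets of a gene give the only measure of spread on these arrays. In 1925 genes a pair of probe sets passed the floor throughout, and the SD of the difference between their ratios was 0.44. Of the members Bambi, Ltbp2, Tgfb1, Tgfb3, Smad6, Acvr2a, Twsg1, Bmp4 and Tgfbi had a ratio farther from 0 than that. The ratios of all genes above the floor on both arrays had an SD of 0.38. The share of all genes past 0.44 was not counted, so these members are not shown to stand out. The SD between probe sets describes probe sets read on the same RNA, and it does not measure how samples of a graft type vary.

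Other genes of the pathway were taken from lists of further ligands, matrix and antagonist genes, receptors, Smad regulators and targets, 73 of which had a probe set and 47 were above the floor. These lists were written with earlier results of these data known, so shares within them are not a test. None of the 47 was 2-fold apart. At 1.5-fold 9 were apart (19.1%, against 10.6% of all genes), 1 of them higher and 8 lower (17.0%, against 6.56%); the ratios were above 0 in 16 and below 0 in 31, and the median was -0.17. The one above was Bgn, biglycan, a matrix proteoglycan that binds TGF-beta, at 8313 against 5535 (0.59). A pair of processing proteases stood on the low side: Furin, which cleaves TGF-beta and BMP precursors, at 588 against 934.5 (-0.67) and Bmp1, a metalloproteinase that cleaves chordin and procollagen, at 1081 against 1697 (-0.65). Emilin1, a matrix protein that hinders the processing of the TGF-beta precursor, read 501 against 924 (-0.88), the lowest of these genes. Htra1, a secreted protease, read 2391 against 2114 (0.18).

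Among the 17 further target genes above the floor, 13 had a ratio below 0 (76.5%, against 59.5% of all genes) and 5 were 1.5-fold lower (29.4%, against 6.56%). The target list, too, was written with earlier results of these data known, and its shares only describe the genes on it. These 5 were Ccn1, a matricellular protein (549.9 against 948, -0.79), Pmepa1, a TGF-beta-induced inhibitor of Smad activation (757 against 1245, -0.72), Dlx3, a homeobox gene of bone (176 against 288, -0.71), Junb, an early response gene (202 against 318, -0.65), and Sp7, osterix of osteoblasts (817 against 1242, -0.60). Postn, periostin, was the highest at 8256 against 5817 (0.51), followed by Klf10, a TGF-beta early response gene (473 against 364, 0.38). Sp7 and Postn also belong to the osteoblast and the fibroblast marker lists. Osteoblast markers lay on both sides, from Omd at -1.27 to Col1a1 at 2.70.

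Of the further receptors, Neo1, neogenin, read 507 against 743 (-0.55), Acvrl1, a type I receptor of endothelium, 269.5 against 316 (-0.23), and Eng, its co-receptor endoglin, 875 against 951.5 (-0.12). The endothelial markers, whose sums are given above, lay lower in the allograft sample too, 5 of 6 with a ratio being below 0. So did the chondrocyte markers, with 8 of 9 below 0. The part of either list in these ratios, and in those of Bambi, Smad6, Smad7, Id1 and Id3, was not tested. Further Smad regulators ranged from Nedd4l, a ubiquitin ligase (215 against 313, -0.54), and Crebbp, a coactivator (325 against 432, -0.41), to Foxh1, a Smad partner near the floor (209 against 189, 0.15), and Tab2, an adaptor of the kinase TAK1 (2530.5 against 1844, 0.46). Of the further ligands, Gdf9 read 204 against 294 (-0.53), Inha 292 against 322 (-0.14) and Lefty1 303 against 299.9 (0.01), and 11 of 15 were below the floor on both arrays.

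**Figure D5:**
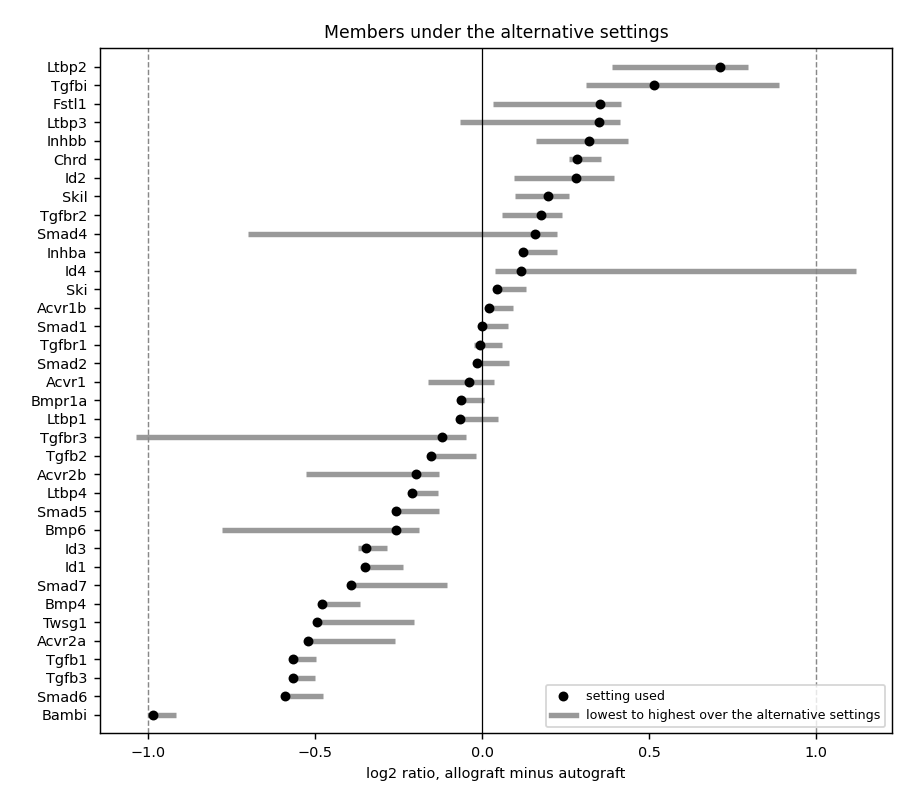
Log2 ratio (allograft minus autograft) of each member in the setting used (black points) and its lowest to highest value over the alternative scalings, floors and choices of probe set (grey bars); dashed lines mark 2-fold. Bambi stays between -0.99 and -0.92, whereas the bars of Id4 and Tgfbr3, each above the floor on 1 array only, are the ones that cross 2-fold.

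Direction was followed over the alternative scalings, floors and choices of probe set in which a gene had a value. In all of these, 28 of the 36 members kept the sign of their ratio, among them Bambi, Tgfb1, Tgfb3, Bmp4, Smad6, Smad7, Id1 and Id3 below 0 and Ltbp2, Tgfbi, Fstl1, Chrd, Id2 and Inhbb above it. Ltbp2 ranged from 0.39 to 0.80, Tgfbi from 0.31 to 0.89, and Smad6 from -0.59 to -0.48. The 8 others were Acvr1, Bmpr1a, Ltbp1, Ltbp3, Smad1, Smad2, Smad4 and Tgfbr1. The genes named as below 0, and Ltbp2 and Chrd, had a single probe set each, so the choice of probe set could not alter their ratios. Centring on the median ratio and scaling to the 75th percentile shift all genes above the floor on both arrays alike. They took Smad1 from 0 to 0.05 and 0.06. Bambi, Tgfb1 and Tgfb3 also had the same ratio at the lower and the higher floor. A kept sign is therefore no independent support for a ratio. Settings in which a gene fell below the floor dropped out, which left 7 of 10 for Id2 and 8 for Inhbb. The share of all genes that kept their sign was not computed.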

How the data were processed

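The deposited table gives, for each probe set, 1 linear intensity per array, already scaled by the authors; which software, background correction and scaling they used is not given in the sources read. The 2% trimmed means were 500.2 (allograft) and 500.1 (autograft), within the 10% set as the limit for using values as deposited. Control probe sets (64) were left out, and probe sets with several gene symbols (691) or none (1555) were not named. All 47 members matched RefSeq symbols of GRCm38.p6 by Entrez identifier. Columns were mapped by sample and groups by title. Values below the median intensity were set to that floor, and the log2 ratio, the 2-fold counts and list medians were computed. Values are given for every member above the floor on at least 1 array. The 11 members below it on both arrays read between 22.9 and 173.6 by the probe sets used. Further pathway genes are given if at least 1.5-fold apart (chosen after their values were seen) or among the 2 highest or 2 lowest of their list, and marker lists as sums. The members and lists were chosen with earlier results of these data known. The counting step was tested on simulated data with 12393 genes, 200 of them changed 4-fold or 8-fold and all far above the floor, and recovered 100% of them. The simulation did not cover smaller changes, such as those of the members above the floor, or genes near the floor. Alternatives covered scaling, floor, probe set, threshold and summary. Ratios were computed in pandas 2.3.3 and numpy 2.4.6 (Python 3.11.15), trimmed means in scipy 1.17.1, the lowess trend (span 0.4) in statsmodels 0.14.6 and plots in matplotlib 3.10.9.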

Additional observations from a re-analysis of the deposited data

How the results depend on the processing

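Each result was recomputed with 1 choice changed at a time. The counts of 0 members at least 2-fold higher and 0 lower were the same under all scalings, a higher floor (75th percentile), no floor (log2 of intensity plus 16) over the same 36 genes, every choice of probe set and a 4-fold threshold. A floor at the 25th percentile made them 1 (Id4, 1.12) higher and 2 lower, namely Tgfbr3 at -1.04 and Bmp7 at a bound of -1.78 (1 and 2 of 45 members, beside 1.37% and 2.25% of all genes at that floor). Without a floor and over all 47 members, an alternative chosen after seeing the data, 0 were higher and 1 was lower, Bmp7 at -1.78 (1.90% and 3.45% of all genes). At 1.5-fold they were 1 and 2. Medians of lists were taken to have moved where they shifted by over 0.44 divided by the square root of the number of genes. For ligands the median became -0.57 under the higher floor (2 genes), -0.45 without a floor, -0.48 with the dimmest probe sets and 0 over all 12 ligands on the array. Without a floor Bmp6, whose bound is the median as used, stood at -0.71. For antagonists it was -0.49 with the high floor and 0.28 with the dimmest probe sets, and for targets -0.24 and -0.35. Dimmest probe sets gave -0.49 for the Smads and -0.20 for all members. The median of the other pathway genes was -0.10 after scaling to the 75th percentile and 0 over all 73 genes. Scaling to the 75th percentile multiplies each array by a constant, so it shifted all genes above the floor on both arrays alike. It took the median over all genes above the floor from -0.08 to -0.02. The floor, the choice of probe set and the choice of members bring fewer or added genes. Other causes of these shifts were not tested. Of 325 single-gene values 7 moved by over 0.44: Bmp6, Id4 and Tgfbr3 with the low floor or none, and Smad4 by its dimmest probe set (-0.70). The share of all genes below 0 was 59.5% as used and 51.9% after scaling to the 75th percentile. The SD between probe sets, recomputed after seeing the data, lay between 0.42 and 0.53. No paired analysis was possible because each group has 1 array, and for the same reason no replicate could be left out.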
